A study of Mus musculus with 5 samples.

Results

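The small leucine-rich proteoglycans (SLRPs) *Bgn*, *Dcn*, *Aspn*, *Lum*, *Fmod*, *Prelp*, *Omd* and *Ogn* were followed in cultured cardiac fibroblasts (CF), the matrix-producing cells of the heart. They were taken by gene name, and all 8 were found among the 20365 gene names of the tables. CF of adult healthy male C57Bl/6J wildtype mice were grown to confluence. They were then kept for 12 h in medium with 0.1 mM 4-thiouridine (S4U) in 3 labeled libraries and without it in 2 unlabeled libraries. In SLAMseq, S4U enters RNA made during the incubation, and after alkylation with iodoacetamide, which all 5 libraries received, the sequencer reads C at such a position where the gene has T. The T>C conversion rate is therefore the number of conversions per covered T position, and the unlabeled libraries give its background. The libraries were made from the 3′ ends of transcripts, so that transcript length does not set the number of reads. The methods speak of 3 CF preparations, of 2 wells per sample and of control cells kept in parallel without S4U. They do not say which unlabeled library belongs to which preparation. The main tests were therefore unpaired, and p-values measure the spread between these libraries.

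SLRPs are secreted proteins with a core of leucine-rich repeats that binds to collagen fibrils and influences how they assemble. Biglycan and decorin (class I) carry chondroitin or dermatan sulfate chains and also bind growth factors of the TGF-β family, whereas asporin of the same class has an aspartate-rich stretch and no such chain. Lumican, fibromodulin, PRELP and osteomodulin form class II, in which lumican and fibromodulin can carry keratan sulfate, and osteoglycin belongs to class III. In the heart, fibroblasts are a main source of these proteins.

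Each of the 8 genes was read on a single 3′ UTR interval in a last exon of its annotated transcripts (GRCm39). The intervals of 7 of them end near a polyadenylation signal, the hexamer that directs cleavage of the transcript end and so places the reads of this assay. The sites are shown on the transcript's strand with the hexamer in capitals, found in the last 50 bases of the interval, and with 12 bases on either side.
*Bgn*, chrX:72539506-72539535, plus strand: agttgtctctcaATTAAAgaaacactgtgc
*Dcn*, chr10:97353983-97354012, plus strand: catattgaaaaaAATAAAattttaaaaatg
*Lum*, chr10:97408534-97408563, plus strand: agttgatagcaaAATAAAacaatgaagctg
*Ogn*, chr13:49777940-49777969, plus strand: taaatcaacagaAATAAAgcgacaagattg
*Prelp*, chr1:133838056-133838085, minus strand: cacagcagaggaAATAAAgtcatatggaaa
*Aspn*, chr13:49721022-49721051, plus strand: atactggttttcAATAAAaatgtgtgctct
*Omd*, chr13:49746055-49746084, plus strand: atggtaagtgggAATAAAaaaaactaagct

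The hexamer AATAAA was present in 6 of the 8 intervals and ATTAAA in that of *Bgn*, searched on the transcript's strand only. *Fmod* held neither in its last 50 bases. Over 19783 genes with 1 interval each, 64.0% held AATAAA, 17.9% held ATTAAA and 78.0% held at least 1 of them, so that 7 of 8 is near the share of all genes. The intervals of *Dcn* and *Ogn* end 4130 and 2435 bases before the annotated gene end and that of *Prelp* 707 bases before it, those of *Bgn* and *Fmod* reach 1 and 3 bases past it, and reads of longer or other transcript ends are not part of the levels given here.

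The genes lie in 3 pairs or runs of neighbours with no other protein-coding gene between them, at distances given between the annotated gene bounds and not between the intervals, and *Bgn* lies alone on the X chromosome (ENSMUSG00000031375.20, interval chrX:72538403-72539542). *Dcn* (ENSMUSG00000019929.18, chr10:97353518-97354025) and *Lum* (ENSMUSG00000036446.7, chr10:97407914-97408565) are 42.8 kb apart. *Prelp* (ENSMUSG00000041577.7, chr1:133838042-133840343) and *Fmod* (ENSMUSG00000041559.9, chr1:133974364-133976018) are 107.02 kb apart. *Aspn* (ENSMUSG00000021388.16, chr13:49720108-49721041), *Omd* (ENSMUSG00000048368.11, chr13:49745864-49746088) and *Ogn* (ENSMUSG00000021390.8, chr13:49776460-49777977) follow each other at distances of 14.9 kb and 15.1 kb, within the span of *Cenpp* on the other strand and without overlap with its exons. *Prelp* lies likewise in the span of Gm15851 on the other strand.

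The reads counted on 1 interval per gene name numbered 1576048, 1194971 and 506045 in labeled libraries 1, 2 and 3, and 1843033 and 996143 in unlabeled libraries 1 and 2. Names with the same reads were each counted, such as *Pcdhga1* and *Pcdhga2*, both with a mean labeled level of 704 CPM. These totals and the numbers of genes used as background therefore hold some reads repeatedly. Levels are given as CPM relative to these counted reads. Labeled library 1 stood apart from its replicates (chi-square per degree of freedom 18.2 against library 2 and 12.2 against library 3, with 2.20 between libraries 2 and 3), and the unlabeled libraries differed by 17.7. All 7 fibroblast markers were read in every library, with a summed level of 27400 to 30345 in labeled and 20279 to 23510 in unlabeled libraries. *Col1a1* was the highest and, with *Col1a2*, gave most of the sum, whereas 2 of the 7, *Pdgfra* (516 to 525 CPM labeled, 722 and 841 CPM unlabeled) and *Ddr2* (245 to 332 and 382 and 453 CPM), lay lower in every labeled library. None of the 7 was called in edgeR, and with the replicate block *Col1a1* was called higher and *Pdgfra* lower. The 4 markers of activated fibroblasts summed to 1865 to 3065 in labeled and 1224 to 1466 in unlabeled libraries. *Acta2* had their highest mean labeled level, but *Postn* lay above it in the libraries numbered 1 (844 against 539 CPM labeled, 702 against 353 CPM unlabeled). Here and below, the highest gene of a list is that of the highest mean labeled level, which need not lead in every library. The isolation described for operated hearts uses collagenase perfusion, discards epicardial cells and removes CD31+ endothelial and CD45+ immune cells with magnetic beads. For healthy hearts of other assays the methods refer to this isolation. For the healthy hearts used here they name none. Markers of other cells were low: 6 macrophage markers (5 read in every library, highest *C1qa*) summed to 54.6 to 99.6 labeled and 59.7 to 104 unlabeled, 5 endothelial markers (highest *Cdh5*) to 113 to 204 and 160 to 223, and 5 cardiomyocyte markers (highest *Tnnt2*, with *Ryr2* at 0) to 1.90 to 6.69 and 1.63 to 7.03. The sums of the pericyte and smooth muscle list (highest *Cspg4*) and the epicardial list (highest *Wt1*, with *Msln* at 0) did not exceed 15.8. Of the 5 cartilage and bone markers, which summed to 323 to 545, *Sox9* made up most, and *Bglap* was at 0.

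The SLRPs together made up 1.17% to 1.34% of the counted reads, and *Bgn* and *Dcn* gave 75.6% to 81.8% of this share. In these bulk samples, fewer cells that express a gene and less RNA per cell cannot be told apart. *Dcn* was read at 4900, 4963 and 4885 CPM in labeled libraries 1, 2 and 3 and at 4798 and 5038 CPM in unlabeled libraries 1 and 2 (labeled 4916 ± 41.5, SD, n = 3). *Bgn* was read at 4553, 5712 and 5816 CPM in the labeled and 4228 and 4326 CPM in the unlabeled libraries (labeled 5360 ± 701, SD, n = 3). By mean labeled level they took ranks 6 and 8 of 20365 genes. *Bgn* lay above *Dcn* in 2 of 3 labeled and in 0 of 2 unlabeled libraries, so that their order was not separated from the spread.

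*Prelp*, *Ogn* and *Lum* formed a middle group at ranks 128, 132 and 164. *Prelp*, which encodes a heparin- and collagen-binding protein, was read at 477, 1090 and 931 CPM in labeled and 391 and 967 CPM in unlabeled libraries (labeled 833 ± 318, SD, n = 3). The library numbered 1 was the lowest in both groups. The summed macrophage list was lower in the same libraries (54.6 and 59.7 CPM in the libraries numbered 1, 77.1 to 104 in the others). Of this list, *Lyz2* (2.54 and 3.26 against 17.8 to 30.1 CPM), *Csf1r* and *C1qa* were lower in both. *Cd68* (16.5 and 20.1 against 11.0 to 17.6 CPM), *Adgre1* and *Ptprc* were not. The covered T positions per *Prelp* read (9.75 and 10.8 against 14.2 to 15.9) were also lower there. So were the covered T positions per read over all intervals (18.2 and 19.3 against 20.6 to 21.5). The part of these values in the *Prelp* level was not tested. Without labeled library 1, the labeled mean of *Prelp* was 1011 CPM.

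*Ogn*, the gene of osteoglycin or mimecan, was read at 1039, 756 and 668 CPM in labeled and 1372 and 1200 CPM in unlabeled libraries (labeled 821 ± 194, SD, n = 3). Here the library numbered 1 was the highest in each group. *Lum* stood at 718, 741 and 676 CPM in labeled and 711 and 716 CPM in unlabeled libraries (labeled 711 ± 32.8, SD, n = 3). Within this middle group the neighbours *Prelp* and *Ogn*, and *Ogn* and *Lum*, did not keep their order in all labeled libraries.

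The other 3 genes were read less. *Aspn* was read at 110, 66.9 and 61.3 CPM in labeled and 201 and 105 CPM in unlabeled libraries (labeled 79.5 ± 26.9, SD, n = 3). *Fmod*, whose product binds collagen and takes part in fibril maturation, was read at 40.6, 46.9 and 39.5 CPM in labeled and 30.4 and 39.2 CPM in unlabeled libraries (labeled 42.3 ± 3.96, SD, n = 3). *Omd*, best known from bone and tooth matrix, was read with 14, 8 and 1 reads in labeled and 34 and 2 reads in unlabeled libraries, or 1.98 to 8.88 and 2.01 to 18.4 CPM, and too few for more than its presence. *Lum* above *Aspn*, *Aspn* above *Fmod* and *Fmod* above *Omd* held in 5 of 5 libraries, beyond the spread between labeled libraries. Per kilobase of the interval, *Dcn* had the highest level at 9677 CPM per kb and *Bgn* followed at 4702 CPM per kb. On this scale *Lum* at 1091 CPM per kb lay above *Ogn* at 541 and *Prelp* at 362 CPM per kb. *Aspn* was at 85.2 CPM per kb, and *Omd* and *Fmod* were at 26.0 and 25.6 CPM per kb. Reads of these libraries come from transcript ends, so this order depends on interval length and is not read as an order of levels.

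**Figure D1:**
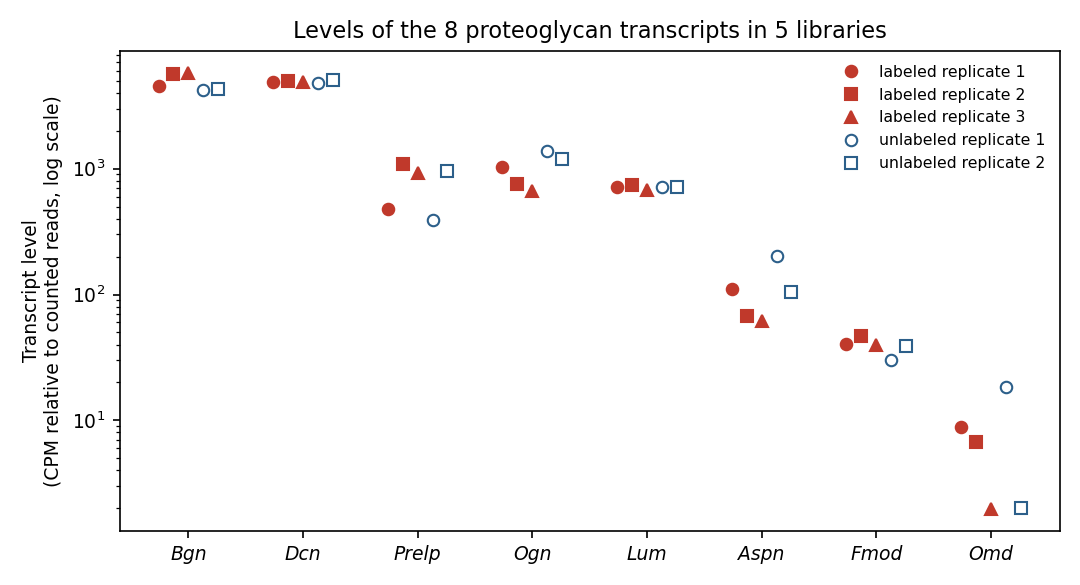
Transcript level of each proteoglycan (CPM relative to counted reads, log scale) in 3 labeled libraries (filled) and 2 unlabeled libraries (open), 1 point per library. *Bgn* and *Dcn* lie between 4228 and 5816 CPM, *Prelp*, *Ogn* and *Lum* between 391 and 1372 CPM, and the points of *Dcn* and *Lum* lie close together while those of *Prelp* and *Omd* are spread.

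The levels of *Dcn* and *Lum* varied little between all 5 libraries, an observation made after their values were seen. The SD was 1.83% of the mean for *Dcn* and 3.27% for *Lum*, the smallest and second smallest of 293 genes with a mean level of at least 500 CPM, whose median was 22.5%. With levels scaled by TMM factors, *Lum* had the smallest SD at 4.30% and *Dcn* the fourth smallest at 5.40%. The SD was 15.7% for *Bgn*, 29.4% for *Ogn* and 40.8% for *Prelp*. The level of *Lum* was 0.138 to 0.149 of that of *Dcn* in every library, whereas *Bgn* was 0.859 to 1.19 of *Dcn*, and *Ogn* was 6.84 times *Aspn* in unlabeled library 1 and 9.41 to 11.4 times *Aspn* in the others.

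How much of each SLRP transcript pool was made within the labeling time was read from the T>C rates. *Bgn* had the lowest rate, with 0.978%, 1.01% and 0.937% of covered T positions converted in labeled libraries 1, 2 and 3 (0.976% ± 0.0372, SD, n = 3) against 0.0639% and 0.0537% in the unlabeled libraries. *Dcn* followed with 1.12%, 1.14% and 1.11% (1.12% ± 0.0136, SD, n = 3) against 0.0669% and 0.0819%. Both rest on at least 44699 covered T positions per library, and the labeled libraries lay close together. The rate of *Dcn* was above that of *Bgn* in 5 of 5 libraries. The difference in the labeled libraries exceeded their SDs, and in the unlabeled libraries the 95% exact binomial intervals of the rates overlapped (0.0497% to 0.0808% for *Bgn* and 0.0557% to 0.0797% for *Dcn* in library 1). These intervals cover counting error only.

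*Fmod* gave a similar labeled rate from few reads, with 1.07%, 1.08% and 1.42% (1.19% ± 0.202, SD, n = 3), or 8, 9 and 4 conversions over 748, 834 and 281 covered T positions. The unlabeled libraries held 1 conversion over 666 positions and 0 over 563, which allows up to 0.533%. *Ogn* was converted at 1.42%, 1.65% and 1.16% (1.41% ± 0.244, SD, n = 3) and had unlabeled rates of 0.131% and 0.108%.

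*Lum*, *Aspn* and *Prelp* had higher rates. *Lum* was converted at 1.57%, 1.89% and 1.82% (1.76% ± 0.169, SD, n = 3), above *Ogn* in all 3 labeled libraries and beyond the spread of both. Its unlabeled libraries held 1 conversion each over 29471 and 18855 covered T positions. *Aspn* was converted at 1.95%, 2.20% and 2.03% (2.06% ± 0.128, SD, n = 3), with 0.168% and 0 of 2612 positions in the unlabeled libraries, which allows up to 0.115% in the second. *Prelp* was converted at 2.31%, 2.17% and 1.75% (2.08% ± 0.288, SD, n = 3) against 0.0258% and 0.0477%. *Prelp* and *Aspn* were not separated, nor were *Ogn* and *Fmod*, or *Fmod* and *Dcn*.

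*Omd* held 1 conversion over 238 positions, 8 over 144 and 0 over 26 in the labeled libraries, and 0 over 597 and 0 over 41 in the unlabeled ones. A count of 0 over 26 positions allows a rate of up to 11.5%, and over 597 positions up to 0.503%. No rate of *Omd* was read at this depth.

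**Figure D2:**
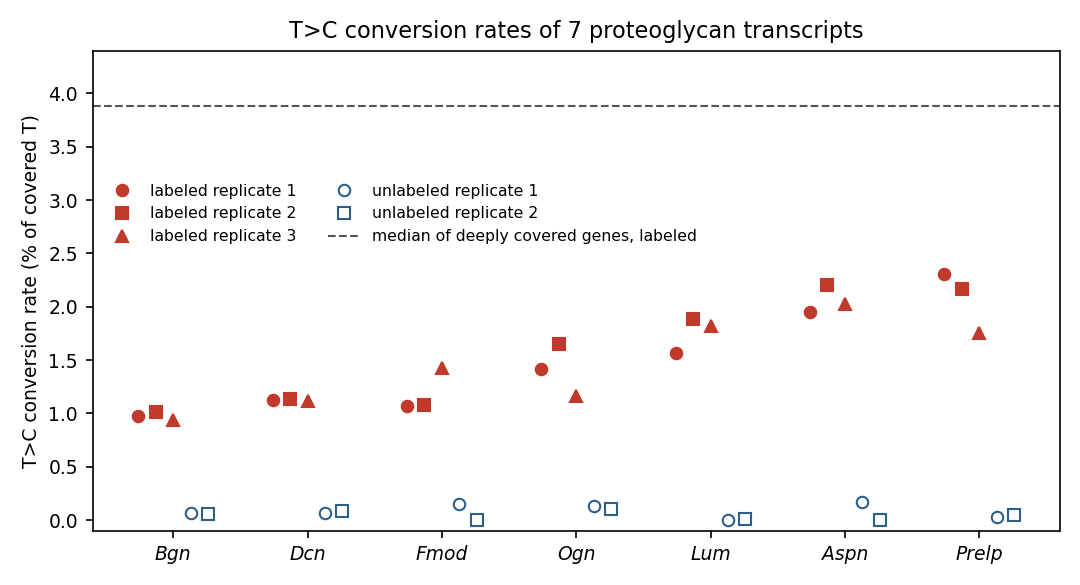
T>C conversion rate (% of covered T positions) of 7 proteoglycan transcripts in labeled (filled) and unlabeled (open) libraries, 1 point per library, ordered by mean labeled rate, with a dashed line at the median of 2107 deeply covered genes. All labeled points lie between 0.937% and 2.31%, below the line at 3.88%, and all unlabeled points lie at or below 0.168%.

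The rate was higher in the labeled libraries for 7 of the 8 SLRPs (beta-binomial likelihood-ratio test, Benjamini-Hochberg adjusted over 19240 intervals), beside 94.5% of all intervals tested. The share among the SLRPs is near that of all intervals. The adjusted p of the beta-binomial test was 4.61e-06 for *Dcn*, 4.69e-06 for *Bgn*, 1.20e-05 for *Lum*, 1.92e-05 for *Prelp*, 3.62e-05 for *Ogn*, 0.000178 for *Aspn* and 0.00134 for *Fmod*. *Omd* did not pass the beta-binomial test at an adjusted p of 0.0608. It passed that test without labeled library 1 (0.0371) or without labeled library 3 (0.0458), and did not without labeled library 2 (0.123). Labeled library 2 held 8 of its conversions, on 3 converted reads. Without that library its rate difference was 0.0021, against 0.0199 with all libraries. *Omd* was called by limma with the replicate number as a block, which called 8 of 8 SLRPs beside 95.8% of all intervals.

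Compared with other transcripts, the SLRPs were labeled little. Among the 2107 genes that reached 1000 covered T positions in each of the 5 libraries, called deeply covered here, the median labeled rate was 3.88%, with quartiles of 3.43% and 4.22%. All 5 SLRPs with this coverage lay below the lower quartile. A lower rate than that of *Bgn* was found for 1.66% of these genes, and the share was 2.47% for *Dcn*, 3.70% for *Ogn*, 6.03% for *Lum* and 8.26% for *Prelp*. *Aspn* and *Fmod* had lower coverage and were set against 8290 genes that reached 100 such positions, of which 4.78% and 1.62% had a lower rate. As a share of the deep median, the rates ran from 25.1% for *Bgn* and 29.0% for *Dcn* to 53.1% for *Aspn* and 53.5% for *Prelp*. The order of the SLRPs by level and by rate had a Spearman correlation of −0.43 over 7 genes that share the same libraries, and over all 8290 genes it was −0.02, both as a description.

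**Figure D3:**
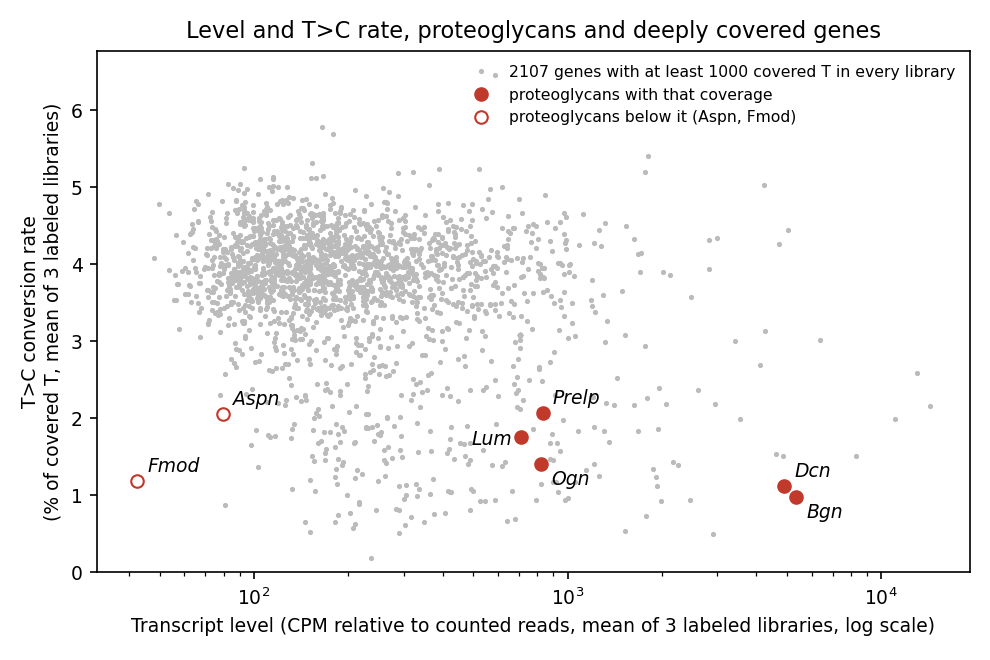
Labeled T>C conversion rate (% of covered T positions) against transcript level (CPM relative to counted reads, log scale), both as the mean of 3 labeled libraries, for 2107 deeply covered genes (gray) and 7 proteoglycans (red, open where coverage was lower). *Bgn* and *Dcn* lie at the lower right with rates of 0.976% and 1.12%, and *Prelp*, *Lum* and *Ogn* lie below the main cloud of genes.

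The share of reads with at least 1 conversion gave the same lowest gene, 10.7% ± 0.795 (SD, n = 3) for *Bgn*, and the same second gene among those with over 1000 covered T positions, 16.04% ± 0.793 for *Dcn*. It was 24.7% ± 4.83 for *Lum*, 20.0% ± 2.28 for *Ogn*, 19.3% ± 2.27 for *Prelp*, 32.5% ± 1.10 for *Aspn* and 13.5% ± 3.60 for *Fmod*, beside a median of 52.7% over the deeply covered genes. This share also depends on how many T positions a read covers, which averaged 14.7 for *Bgn*, 13.3 for *Prelp* and 13.5 for *Fmod*, against 20.0 for *Dcn*, 23.4 for *Lum* and a median of 21.7. A converted read of these 7 genes carried 1.22 (*Fmod*) to 1.68 (*Lum*) conversions in the labeled libraries, beside a median of 1.58.

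The background without S4U differed among the SLRPs. *Lum* had 2 conversions over 48326 unlabeled T positions, *Dcn* 208 over 288111, *Bgn* 105 over 174997 and *Ogn* 91 over 74375. The mean unlabeled rate was 0.00435% for *Lum*, 0.0588% for *Bgn*, 0.0744% for *Dcn* and 0.119% for *Ogn*, beside a median of 0.0510% over the deeply covered genes. In both unlabeled libraries *Ogn* was above *Dcn* and *Lum* was the lowest of *Bgn*, *Dcn*, *Lum*, *Prelp* and *Ogn*. In *Aspn*, 15 conversions were read in unlabeled library 1 and 0 in library 2. Subtracting the unlabeled mean left labeled rates of 0.00917 for *Bgn*, 0.0105 for *Dcn*, 0.0129 for *Ogn* and 0.0176 for *Lum*, as fractions of covered T.

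Whether 12 h of S4U went along with other read counts was asked by comparing labeled with unlabeled libraries. None of the 8 SLRPs changed in the quasi-likelihood test of edgeR, with p-values adjusted by Benjamini and Hochberg over 9807 genes (0 called in each direction, 0 at an unadjusted p below 0.05, 0 by DESeq2). DESeq2 gave no adjusted p for *Omd*, so its count of 0 rests on the other SLRPs. The background was 0% called higher and 0% called lower. At an unadjusted p below 0.05 it was 2.84% higher and 3.12% lower, or 5.97% in either direction (585 genes), and DESeq2 called 20 genes. The median log2 fold change of labeled over unlabeled was 0.07 over the SLRPs and 0.02 over all genes tested.

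Of the 8 genes, the smallest unadjusted p-values belonged to *Aspn*, with a log2 fold change of -0.85 (SE 0.37) and an adjusted p of 0.850 in edgeR, and to *Ogn*, with -0.57 (SE 0.26) and an adjusted p of 0.868 in edgeR. Leaving out unlabeled library 1 brought the *Aspn* value to -0.37 and leaving out unlabeled library 2 brought it to -1.21. The labeled and unlabeled levels of *Ogn* did not overlap (668 to 1039 against 1200 to 1372 CPM), while those of *Aspn* did (61.3 to 110 against 105 to 201 CPM). With the replicate number as a block, which the labels do not establish as a pairing, edgeR called 0 SLRPs higher and these 2 lower, beside 5.38% of all genes called higher and 6.3% called lower. *Bgn* and *Fmod* did not overlap in the other direction, with log2 fold changes of 0.41 (SE 0.25) and 0.37 (SE 0.31) and edgeR adjusted p of 0.978 and 0.99974. Of all genes, 8.20% lay above and 13.1% lay below in every labeled library, beside 2 of 8 SLRPs above and 1 of 8 below, and nothing particular to the SLRPs is read from these counts. Beside these values, the markers of activated fibroblasts had a median log2 fold change of 1.27, with 0 of 4 called in edgeR and 2 of 4 at an unadjusted p below 0.05. With the replicate block edgeR called 2 of these 4 higher, *Tagln* at 1.46 and *Acta2* at 0.82 (adjusted p 1.2e-17 and 4.5e-06), and their part in the SLRP differences was not tested.

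*Prelp* and *Omd* had log2 fold changes of 0.36 (SE 0.51) and -0.65 (SE 0.84), and *Dcn* and *Lum* of 0.07 (SE 0.22) each. For *Dcn* and *Lum* the sign depended on the scaling: without normalization beyond the counted reads the values were -0.0016 and -0.0046. For *Prelp* it turned to -0.18 without unlabeled library 1, in which its level was the lowest, and the value was 1.22 without unlabeled library 2.

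**Figure D4:**
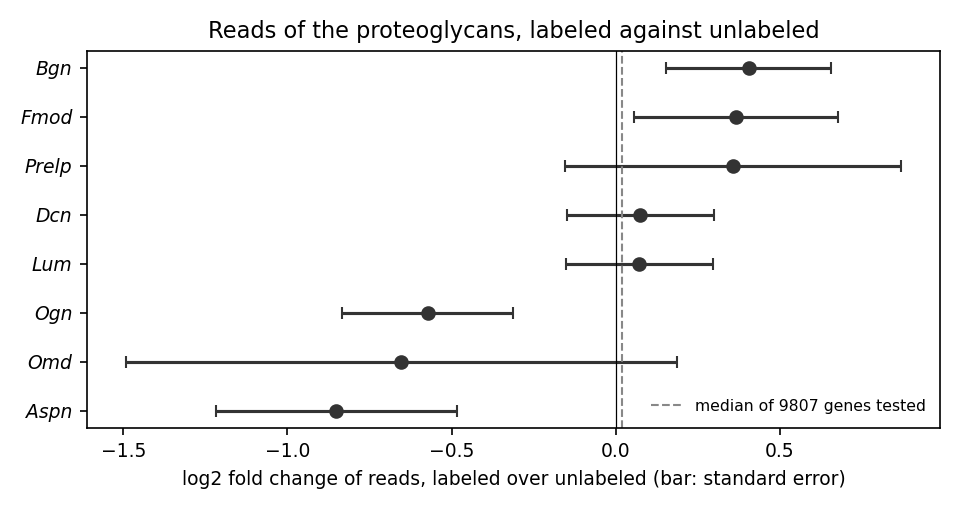
log2 fold change of reads, labeled over unlabeled, for each proteoglycan (points, edgeR estimate; bars, standard error), with a dashed line at the median of the 9807 genes tested. The points run from -0.85 for *Aspn* to 0.41 for *Bgn*, and none passed the test.

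Genes that act with the SLRPs were described from lists of 66 genes, of which 51 were tested for reads and 0 were called (at an unadjusted p below 0.05, 7 were higher and 1 lower, beside 2.84% and 3.12% of all genes), with a median log2 fold change of 0.15. With the replicate block, edgeR called 8 of the 51 higher and 4 lower, beside 5.38% and 6.3% of all genes. Collagen chains, which SLRPs bind, also had rates below the median of the deeply covered genes. All 10 were deeply covered, with rates from 0.752% ± 0.0629 (SD, n = 3) in *Col14a1*, a fibril-associated collagen, to 2.68% in *Col5a1*, a median of 2.09%, and *Col1a1* as the highest in level at 13036 CPM (rate 2.59% ± 0.199, SD, n = 3). The mean rates of all 5 deeply covered SLRPs lay below that median, that of *Prelp* within its SD.

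Of the 21 genes that build chondroitin and dermatan sulfate chains, 19 were tested for reads. The 5 deeply covered ones had a median rate of 4.21%, above the median of all deeply covered genes. *Chsy1*, a chondroitin sulfate synthase, had the highest mean labeled level at 297 CPM (rate 4.18% ± 0.217, SD, n = 3). In unlabeled libraries 1 and 2 *Dse* lay above it (264 and 184 against 196 and 139 CPM). *Chsy1* had a log2 fold change of 0.91 (SE 0.27), not called in edgeR and called higher with the replicate block (0.87). Of 6 genes for keratan sulfate, *B4galt1*, a galactosyltransferase, was the highest at 263 CPM and had a rate of 3.63% ± 0.208 (SD, n = 3). In the list of procollagen processing and growth factors, *Pcolce*, the enhancer of the procollagen C-proteinase, was the highest at 421 CPM and had a rate of 1.04% ± 0.208 (SD, n = 3), close to that of *Bgn*. *Ccn4*, a matricellular protein that binds decorin and biglycan, had the highest rate among the deeply covered genes of these lists at 5.18% ± 0.206 (SD, n = 3). Of the large proteoglycans, *Vcan* (versican) was the highest at 230 CPM with a rate of 4.29% ± 0.326 (SD, n = 3), and *Acan*, *Bcan* and *Ncan* had 0 reads. Of 10 further leucine-rich repeat genes 3 were tested, *Podn* was the highest at 85.4 CPM, and *Kera* and *Chad* had 0 reads. Over all lists, 16 of 22 genes with this coverage had a rate below the median of all genes, and the difference between the SLRPs and any list was not tested.

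**Figure D5:**
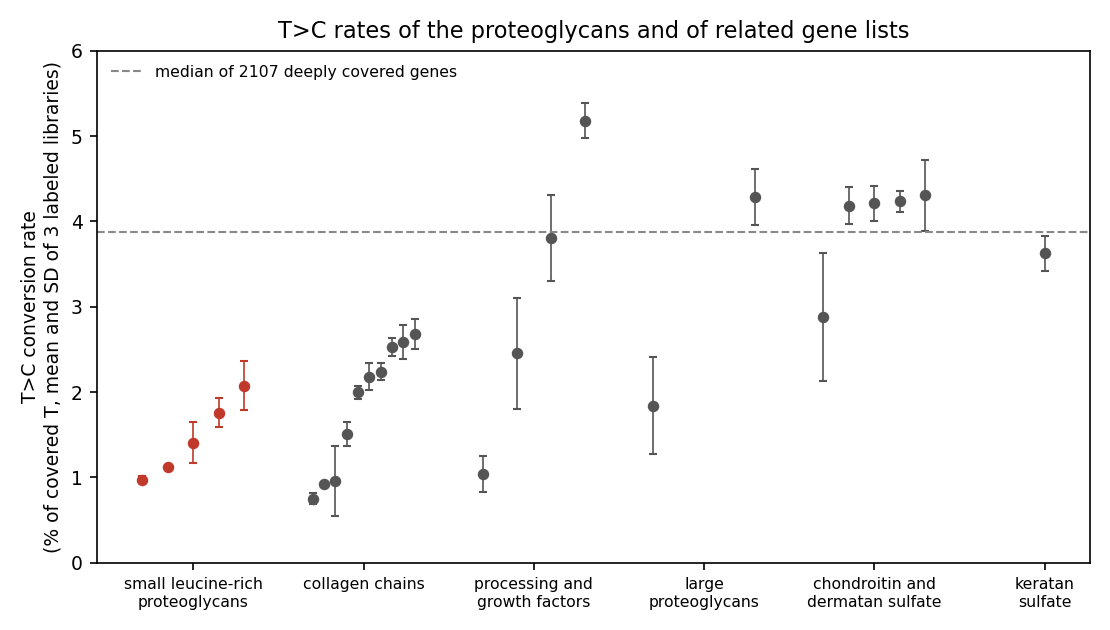
T>C conversion rate (% of covered T positions) of deeply covered genes, as mean and SD of 3 labeled libraries, for the proteoglycans (red) and related gene lists (gray), each ordered by rate within its list. The 5 proteoglycans and the 10 collagen chains lie below 3%, and 4 of the 5 chondroitin and dermatan sulfate genes lie above the dashed median of 3.88%.

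Among 2123 genes that reached 1000 covered T positions in each labeled library, *Bgn* and *Dcn* were the most like each other in level and rate (root mean square difference 0.2998 over 6 standardized values, the level and rate in each labeled library). The next was *Rplp1* for *Bgn* (0.732), with 2461 CPM and a rate of 0.937%, and *Igfbp7* for *Dcn* (0.608), with 4863 CPM and a rate of 1.51%. *Eef1b2* was among the 2 genes most like *Lum* (0.295) and *H2-K1* among the 2 most like *Ogn* (0.335), and the 2 most like *Prelp* were *S100a11* (0.370) and *Rplp0* (0.415). Ribosomal protein and class I histocompatibility genes have near-identical copies that can share reads, so their values are uncertain.

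The intervals themselves differed in length from 225 bases in *Omd* to 2302 bases in *Prelp*, and in T content from 23.7% in *Fmod* to 36.2% in *Lum*, around the median of 28.9% over all genes. The pentamer ATTTA, searched on the transcript's strand, occurred 0 times in *Dcn* and *Fmod*, 1 time in *Bgn*, 2 times each in *Aspn* and *Omd*, 3 times each in *Prelp* and *Ogn* and 4 times in *Lum*. Per kilobase this was 0 to 8.89 with a median of 1.64, beside 1.15 over all genes, of which 64.1% held it.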

How the data were processed

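The labels and methods describe QuantSeq 3′ FWD libraries with unique molecular identifiers. The authors mapped reads to mm39 with SLAM-DUNK 0.4.3 (file header) and removed duplicates with UMI-tools. Raw counts of reads, converted reads, covered T positions and conversions per 3′ UTR interval were deposited. The conversion rate was deposited as a fraction (conversions over covered T). The deposited CPM uses a denominator above the counted reads, so levels were recomputed as CPM relative to counted reads. The origin of the intervals is not given in the sources used here.

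For each gene, the interval with the highest mean deposited CPM in labeled libraries was used (*Prelp* has 2 overlapping intervals with identical reads, and the longer was taken). T content matched GRCm39 in 40380 of 40380 intervals on its chromosomes, and coordinates count from 1. Rates were compared by a two-sided likelihood-ratio test of a beta-binomial model (chi-square with 1 degree of freedom), on 19240 intervals that had a covered T in each library. The overdispersion was fitted for each interval on its own, with 1 value shared by labeled and unlabeled libraries. Reads were compared with edgeR 4.0.16 (TMM, filterByExpr). Calls were made at a Benjamini-Hochberg adjusted p below 0.05. DESeq2 1.42.0 and limma 3.58.1 (R 4.3.3) were alternatives, and other steps used Python 3.11.15 with scipy 1.17.1 and pysam 0.24.0. Tests were checked on simulated data, where the beta-binomial test called unchanged intervals more often than its nominal level. There edgeR without the replicate block left many changed genes uncalled, and with the block it made more false calls. The simulated reads held no effect shared by libraries of the same number.

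The genes and lists were chosen with earlier results of these data known. Named were the 8 genes, the highest gene of each list in level, the lowest and highest in rate among deeply covered genes, the highest marker of each list, and the 2 genes most like each well-covered SLRP, of which some are not reported here. *Tagln*, *Pdgfra*, *Ddr2*, *Col1a2*, *Col5a1*, *Kera*, *Chad*, *Acan*, *Bcan* and *Ncan* and the markers at 0 were named after their values were seen. The same holds for *Lyz2*, *Csf1r*, *Cd68*, *Adgre1*, *Ptprc*, *Pcdhga1* and *Pcdhga2*.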

Additional observations from a re-analysis of the deposited data

How the results depend on the processing

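When each library was left out in turn, the number of SLRPs called with a higher T>C rate was 7 to 8. The number of SLRPs called with changed reads was 0, and the number of all intervals with a higher rate ran from 16920 to 18549. That number was 3154 with at least 1000 covered T and 10623 with 1 interval per gene, since fewer were tested. Over all genes, changed reads numbered 20 by DESeq2 and 585 at an unadjusted p below 0.05, and 8 among the related lists at that threshold. The log2 fold change of reads turned to -0.0016 for *Dcn* and -0.0046 for *Lum* without normalization, and when each library was left out in turn it ran from -0.0072 to 0.16 for *Dcn*, 0.018 to 0.12 for *Lum*, 0.14 to 0.60 for *Fmod* and -0.18 to 1.22 for *Prelp*, each lowest without unlabeled replicate 1 and highest without unlabeled replicate 2. It ran from -1.21 (without unlabeled replicate 2) to -0.37 (without unlabeled replicate 1) for *Aspn* and from -1.38 (without unlabeled replicate 2) to -0.39 (without labeled replicate 3) for *Omd*, which did not pass the filter on low counts without labeled or unlabeled replicate 1. For *Bgn* and *Ogn* it moved by less than 1.5 times. The cause was not tested. In the order of the 8 SLRPs by level, 2 ranks moved with the deposited CPM (*Prelp* and *Ogn*) and 6 per kilobase. In the order by rate, *Omd* included, 7 ranks moved with the share of converted reads, 2 with the unlabeled rate subtracted, and 2, 6 and 5 without labeled replicate 1, 2 and 3. Depth limits *Omd* and *Fmod*, and the values rest on 3 and 2 libraries.

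The labeled and unlabeled libraries share replicate numbers 1 and 2, and the labels do not say that a number marks a shared preparation. Deviations of same-numbered libraries correlated at 0.786 for number 1 and 0.641 for number 2 over 9807 genes, and labeled library 3 correlated with unlabeled library 2 at 0.484. With 2 unlabeled libraries their deviations are exact opposites, so each of these values has its mirror against the other library (-0.786, -0.641 and -0.484), and they do not establish a pairing. With the replicate block, edgeR called 1146 genes (528 higher and 618 lower) and 12 of the related lists (8 higher and 4 lower). It called 2 SLRPs, both lower in labeled libraries, *Aspn* (log2 fold change -0.72, adjusted p 0.0013) and *Ogn* (-0.48, adjusted p 0.0169), with 1 residual degree of freedom and beside 6.3% of all genes called lower. In the simulated data the block gave more false calls than the fit without it. Those data held no effect shared by libraries of the same number, so they cannot weigh the block where such an effect exists. For the T>C rate, limma with the replicate block called 8 SLRPs, *Omd* included, and 18437 of 19240 intervals.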
